A study of Homo sapiens with 6 samples.

Results

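DNA repair gene families were described on 6 expression arrays of NCI-H292, an established line of human pulmonary mucoepidermoid carcinoma. The members were chosen by gene name, with earlier results of these data known. They are every probe set annotated to a single gene of the FANC, XRCC, ERCC, MSH, MLH, PMS or numbered RAD families, without RAD23B. ATM, ATR, BLM, BRCA1, CHEK1, CHEK2, MRE11, NBN and WRN were added by name. BRCA2 was named as well, but no member probe set is annotated to it, so it was not tested. A probe set is the group of short probes that reports 1 transcript region. The rule gave 151 probe sets of 61 genes, out of 41091 probe sets of 19775 genes with a single-gene annotation. The 3 arrays of the CT45A1 overexpression group held RNA of stable transfectants carrying a fusion of CT45A1 and Venus, a fluorescent protein, and the 3 arrays of the CT45A1 negative group held RNA of stable transfectants with Venus alone, so both groups carry Venus. All cells were grown in DMEM with serum. The labels do not say whether the transfected cells were clones or pools, or whether each replicate was its own culture. The p-values therefore cover the spread among these 6 arrays alone, and that spread may be technical. The question of the series was how forced CT45A1, an X-linked cancer/testis antigen, changes transcript levels in these cells.

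Cells mend DNA by several routes, which share some of their parts. Breaks through both strands are sensed by the MRE11-RAD50-NBN complex and signalled by the kinases ATM and ATR to CHEK1 and CHEK2. They are then joined end to end by the Ku proteins and XRCC4, or copied from the sister chromatid with the help of BRCA1. Fanconi anaemia proteins open crosslinked strands, the MSH, MLH and PMS proteins correct mispaired bases after replication, and the ERCC proteins cut out bulky lesions.

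Each probe set has a MAS5 signal, which is an intensity on a linear scale, and a positive log2 difference means a higher signal with CT45A1. Both probe sets annotated to the CT45 family were higher on every overexpression array than on any negative one, which checks the labels at the level of the family only, since a probe set cannot separate its near-identical genes. The brighter gave signals of 518, 700.1 and 445 with CT45A1 and 23.1, 15.8 and 1.95 without it. The negative signals lay below the array median and give no firm fold. Both probe sets exceeded the array median on the 3 overexpression arrays only. They were thus kept for testing through the group where they are high, and their limma calls are no support for the labels. All 8 epithelial marker genes were bright enough to test, against 0 of 5 fibroblast, 1 of 6 immune (CD14) and 2 of 4 endothelial ones (CDH5 and PECAM1). The summed signal of the epithelial list was 77484 to 77903 with CT45A1 and 78143 to 83643 without it, and that of the endothelial list 676 to 711 and 456 to 580. The array medians were 79.2 to 83.3 in the overexpression group and 72.6 to 75.6 in the negative group, a mean gap of 0.14 on the log2 scale. The ratio of actin signal at the 3' end to that at the 5' end, which moves with RNA integrity, was 1.42 to 1.55 and 1.64 to 1.91. Neither measure overlapped between the groups. Their part in the results cannot be told apart from that of CT45A1, also where the actin ratio is added to the model below. Beyond the alternatives given below it was not tested. Precision is limited by having 3 arrays a group.

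DNA repair genes as a whole differed little between the groups, and 2 probe sets of 2 genes passed the test, FANCG and ATM, both higher with CT45A1. Of the 151 probe sets, 120, of 56 genes, exceeded the array median on at least 3 arrays and were tested. Of those, 2 rose, 0 fell and 118 did not pass at a limma adjusted p under 0.05 over all 27618 probe sets tested. The share of members that passed, 1.67%, lay below the 3.23% of all probe sets, or 1.89% upward and 1.34% downward. At an unadjusted p under 0.05, 14 members were higher and 4 lower, against 12.2% and 8.5% of all probe sets. The 3 overexpression arrays lay wholly on one side of the 3 negative ones for 30 members (25.0%), against 26.6% of all probe sets. These shares lay near or below those of all probe sets.

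**Figure D1:**
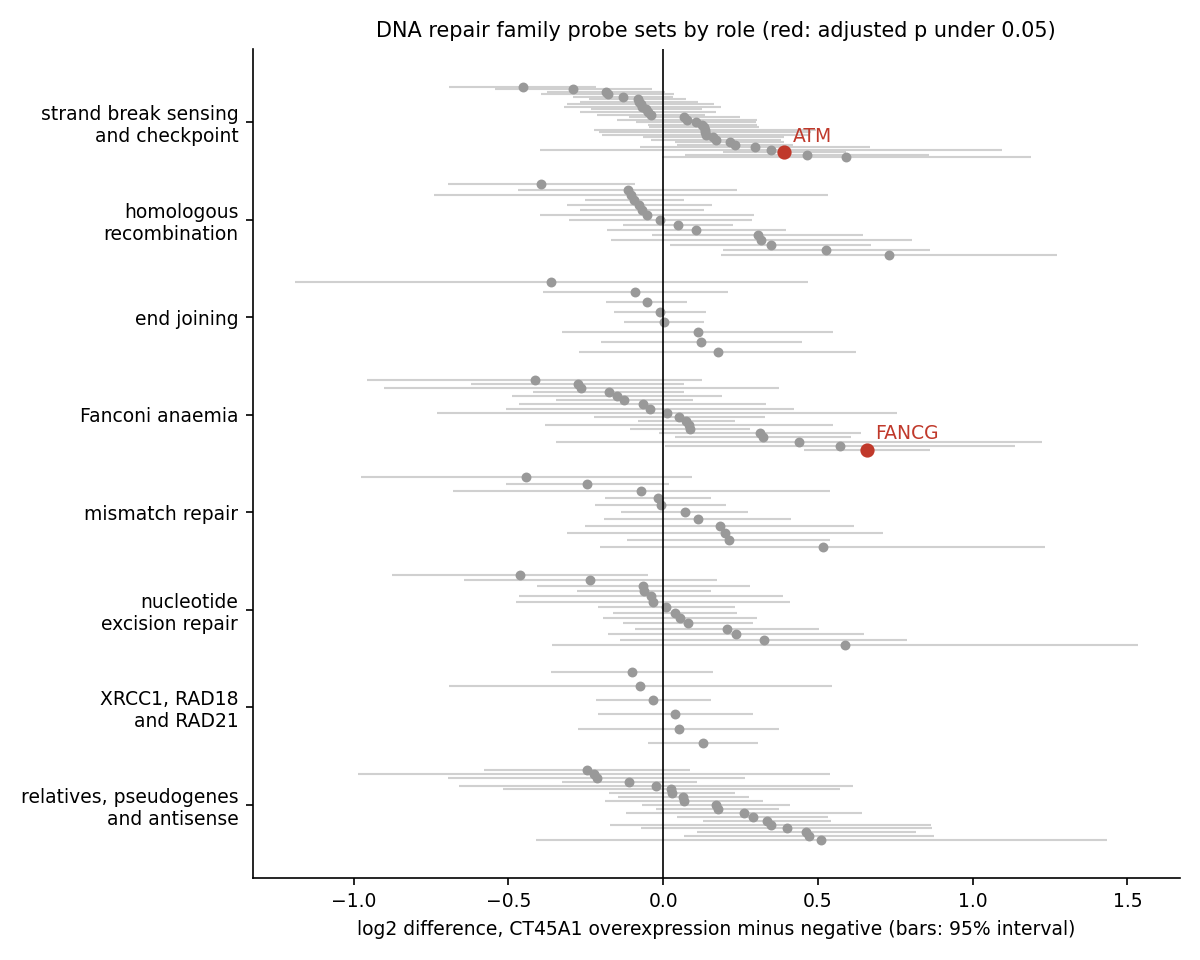
Each point is 1 tested probe set of a DNA repair family gene, placed by its log2 difference (horizontal axis, overexpression minus negative, n = 3 per group) and grouped by role (vertical axis), with limma's 95% interval as a bar. The 2 red points, ATM at 0.39 and FANCG at 0.66, passed at an adjusted p under 0.05, and the other 118 did not.

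The differences were small as well as mostly below the threshold. The median over the 120 members was 0.05, against 0.03 over all probe sets, and 69 members lay above 0 and 51 below. Of the 120, 47 differed by less than 0.1, 74 by less than 0.2 and 112 by less than 0.5. The 95% interval of the difference lay within a 1.5-fold change in either direction for 76 members and within a 2-fold change for 111. The sign of the whole set depends on how the arrays are scaled. Centring every array on its median moved the median over all probe sets from 0.03 to -0.11 and that of the members to -0.09, with 38 of 120 above 0. Under that centring 1 member rose, FANCG, and 3 fell, RAD1, RAD50 and WRN, while quantile normalization gave FANCG higher and RAD50 lower. Of the 120 differences, 10 changed sign under quantile normalization, 31 under median centring and 23 with the actin ratio added to the model, and 0 of those passed in the turned direction. Statements below on the side of 0 hold for the signals as deposited unless another setting is named.

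The Fanconi anaemia group held the largest change that passed. FANCG, a scaffold subunit of the core complex that attaches ubiquitin to the FANCI-FANCD2 pair at a crosslink, has 1 probe set here. Its signals were 1047, 1042 and 1063 with CT45A1 and 617, 710.4 and 672 without it. The overexpression arrays were nearly equal to each other, and the lowest of them lay well above the highest negative array. The mean log2 signal rose from 9.38 ± 0.10 to 10.04 ± 0.02 (SD, n = 3), a difference of 0.66 (SE 0.09, limma adjusted p = 0.00694) or 1.58-fold. FANCG passed in 15 of 17 alternative settings, with differences of 0.51 to 0.71. The settings that filter, pick or average probe sets leave the values of its 1 probe set unchanged. They alter only the other features in the fit and the adjustment. It lost the call with that actin ratio added to the model (0.65, adjusted p = 0.0741) and without limma's variance trend (0.66, adjusted p = 0.066). With 1 probe set per gene, where 457 of 11895 genes (3.84%) passed, FANCG was the 1 of 56 repair genes to pass, and it did so in all 15 alternatives, at an adjusted p of at most 0.0476.

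The stretch before the start of FANCG and the stretches before both listed starts of ATM are shown because these are the genes whose probe sets passed. Each line gives the 250 bases before a start site in RefSeq's annotation of GRCh38.p14, 5′ to 3′ on the gene's strand. FANCG lies on the minus strand of chromosome 9, at chr9:35079943-35080192, and ATM on the plus strand of chromosome 11, at chr11:108222817-108223066 and chr11:108223075-108223324. Capitals mark GC boxes (GGGCGG) and CCAAT boxes (CCAAT), searched on both strands.
FANCG: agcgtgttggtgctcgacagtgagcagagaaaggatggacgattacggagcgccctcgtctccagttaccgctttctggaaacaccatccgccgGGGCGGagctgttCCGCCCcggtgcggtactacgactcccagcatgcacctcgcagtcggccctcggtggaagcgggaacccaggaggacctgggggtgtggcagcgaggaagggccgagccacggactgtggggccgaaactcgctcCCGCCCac
ATM, first start: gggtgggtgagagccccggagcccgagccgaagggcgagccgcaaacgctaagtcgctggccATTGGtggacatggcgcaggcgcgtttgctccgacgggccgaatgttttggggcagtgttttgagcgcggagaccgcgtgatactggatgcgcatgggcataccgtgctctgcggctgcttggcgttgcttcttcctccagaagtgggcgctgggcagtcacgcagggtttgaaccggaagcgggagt
ATM, other start: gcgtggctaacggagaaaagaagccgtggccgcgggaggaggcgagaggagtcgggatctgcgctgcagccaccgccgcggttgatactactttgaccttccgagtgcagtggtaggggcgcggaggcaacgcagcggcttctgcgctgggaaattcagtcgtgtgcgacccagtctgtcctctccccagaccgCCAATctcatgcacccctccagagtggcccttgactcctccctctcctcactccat

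The FANCG stretch holds 3 GC boxes and no CCAAT box, and each ATM stretch holds 1 CCAAT box and no GC box. Of the 35116 stretches of this length in the table, 42.6% hold a GC box and 11240 hold a CCAAT box, so both are common. None of the 3 stretches holds the E2F letters TTTGGCGC or TTTCGCGC, present in 0.55% and 0.439% of all stretches, or the core of the interferon-stimulated response element, present in 3.02%. These matches describe letters, and no binding was measured.

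FANCG lies on chromosome 9 between VCP and PIGO in the RefSeq gene order, and the values of its neighbours were looked up after those of FANCG were seen. PIGO, which adds ethanolamine phosphate to the GPI anchor of membrane proteins, gave signals of 854, 956 and 752 with CT45A1 and 632, 565 and 581 without it at its brighter probe set. The arrays did not overlap, and the difference was 0.52 (SE 0.11, limma adjusted p = 0.038), which passed in 6 of 17 alternatives. Its dimmer tested probe set differed by 0.55 (SE 0.20, adjusted p = 0.149). VCP, a protein-unfolding ATPase, differed by -0.13 and 0.02 at its probe sets, and STOML2, a mitochondrial membrane protein on the far side of PIGO, by -0.02, with overlapping arrays in each case.

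The other Fanconi anaemia genes did not pass. Of the group's 18 probe sets tested, 1 rose, 0 fell and 17 did not pass (5.56% called, against 3.23% of all probe sets). Their median was 0.03, and it lay at -0.06 after quantile normalization. FANCF, an adaptor of the core complex, gave 529, 570.1 and 719 with CT45A1 and 482, 472 and 487 without it at one probe set, a difference of 0.32 (SE 0.13, limma adjusted p = 0.191). Its other probe set had overlapping arrays and differed by -0.07. FANCM, the DNA translocase that anchors the core complex, had 4 probe sets tested, which differed by -0.26 to 0.57. FANCB, an X-linked core subunit, had 4 as well, which differed by -0.41 to 0.44, so neither gene had a single direction. FANCI, the partner of FANCD2 on DNA, was bright and close to equal, at 0.07 and 0.09 on its brightest probe sets and -0.18 on its dimmest. FANCL, the ubiquitin ligase of the complex, differed by -0.13 (95% interval -0.35 to 0.10), FANCE by -0.04 and FANCC by 0.08 at its brighter probe set, the other lying below the array median in both groups.

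Among the sensors and checkpoint kinases, ATM was higher and the members of the MRE11-RAD50-NBN complex differed in sign. Of 29 probe sets of 10 genes, 1 rose, 0 fell and 28 did not pass (3.45% called, against 3.23% of all probe sets). Their median was 0.11, and it became -0.04 after centring on the array median. ATM, the kinase that signals broken ends, rose at a probe set with the suffix _x_at, which marks probes that can match other transcripts. Its signals were 1026, 937 and 972 with CT45A1 and 729, 777 and 731 without it, with no overlap. The log2 mean rose from 9.54 ± 0.05 to 9.93 ± 0.07 (SD, n = 3), a difference of 0.39 (SE 0.09, limma adjusted p = 0.0439). The brightest ATM probe set gave 1576, 1526 and 1617 against 1369.7, 1422 and 1276, again without overlap, at a difference of 0.22 (SE 0.08, adjusted p = 0.162). The other tested ATM probe sets differed by 0.30 and 0.35 with overlapping arrays, so all 4 lay above 0, as they did after quantile normalization, median centring and with the actin covariate. The ATM call held in 2 of 15 alternatives, with differences of 0.25 to 0.42 and adjusted p from 0.0323 to 0.348. It was lost without any 1 of the 6 arrays, where the adjusted p was 0.145, 0.128 and 0.101 without overexpression replicate 1, 2 or 3 and 0.122, 0.0799 and 0.063 without negative replicate 1, 2 or 3.

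RAD50, the coiled-coil ATPase that bridges broken ends, had the lowest p of the members that did not pass. At that probe set it gave 646, 557 and 615 with CT45A1 and 748, 859.8 and 884 without it, and the groups did not overlap. The difference of -0.45 (SE 0.11, limma adjusted p = 0.0503) passed in 4 of 16 alternatives, with values from -0.60 to -0.15. Its brightest probe set differed by -0.13 and its dimmest by 0.14, which became -0.27 and -0.01 under median centring. MRE11, the nuclease of the complex, differed by 0.23 and 0.46 (adjusted p = 0.156 and 0.176), although the second value was -0.01 with the actin covariate. NBN, the subunit that recruits ATM, lay slightly below 0 at all 4 probe sets, from -0.18 to -0.05, and none passed; 1 of the 4 was 0.03 with the actin ratio in the model.

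The remaining checkpoint genes did not pass. ATR, the kinase that answers stalled forks, gave 2633, 2679.7 and 2535 with CT45A1 and 2661, 2717 and 2937 without it at its brightest probe set. Those arrays overlapped, and the difference was -0.08 (95% interval -0.24 to 0.07), with 0.08 at the other probe set. CHEK1, the effector kinase of ATR, had 4 probe sets tested. The 3 bright ones differed by -0.19, -0.07 and 0.13, and a dim one by 0.59 (SE 0.27, limma adjusted p = 0.244), with signals of 113 to 149 against 69.2 to 100.7. CHEK2, the effector kinase of ATM, differed by 0.14 (95% interval -0.20 to 0.47) at its single probe set. RAD17, which loads the 9-1-1 clamp, lay above 0 at all 3 probe sets, by 0.11, 0.13 and 0.17, each without overlap and none passing, and 2 of the 3 lay below 0 under median centring, at -0.01 and -0.04. RAD9A, a clamp subunit, differed by 0.16, and RAD1, another, by -0.29 to 0.14 over 5 probe sets.

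**Figure D2:**
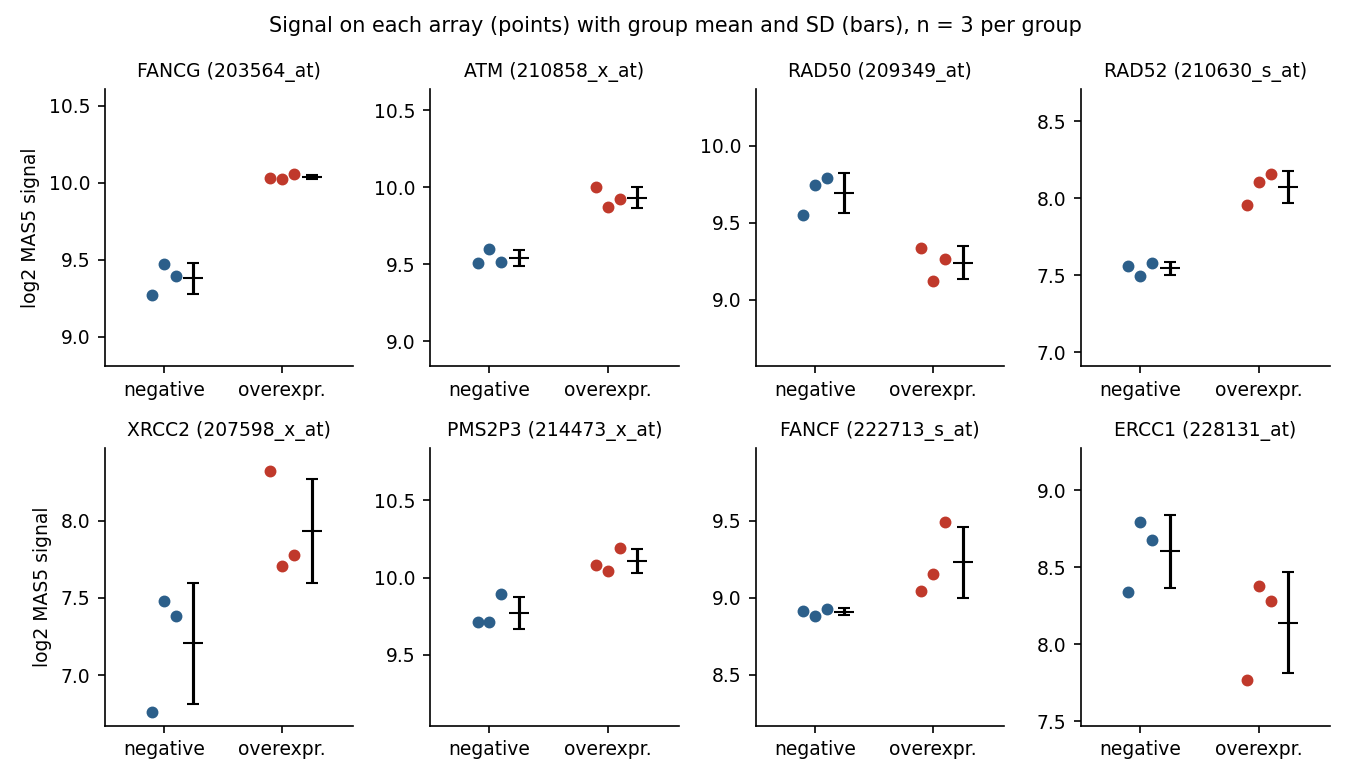
Each panel shows the log2 MAS5 signal (vertical axis) of 1 probe set on the 3 negative and 3 overexpression arrays (points), with group mean and SD (bars). Every panel spans 1.8 log2 units. FANCG, ATM, RAD50, RAD52, XRCC2, PMS2P3 and FANCF do not overlap between the groups, ERCC1 does, and FANCG and ATM alone among the 8 passed the test.

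Homologous recombination genes held the largest difference among the 120 probe sets tested, which did not pass. Of 15 probe sets of 11 genes, 0 rose and 0 fell in limma, against 3.23% of all probe sets called in either direction. At an unadjusted p under 0.05, 3 were higher and 1 lower, against 12.2% and 8.5% of all probe sets. The median was -0.01. XRCC2, a recombination protein, gave 320.3, 209 and 219 with CT45A1 and 108, 178 and 167 without it. Its only probe set carries the suffix _x_at, so its probes can match other transcripts. The groups did not overlap, but the spread within each was wide, and the difference was 0.73 (SE 0.24, limma adjusted p = 0.131). RAD52, an annealing protein, gave 248, 275 and 285 against 189, 180.3 and 191 at one probe set, a difference of 0.53 (SE 0.15, adjusted p = 0.088), and differed by 0.31 at its other one. RAD54L, a DNA translocase, differed by 0.35 (adjusted p = 0.213). WRN, the helicase lost in Werner syndrome, gave 301, 344 and 336 against 468, 369 and 456, a difference of -0.39 (adjusted p = 0.14), and it passed under median centring.

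The other recombination genes had small differences where their signals were bright. BRCA1, the tumour suppressor that commits ends to recombination, gave 1793, 1493 and 1537 with CT45A1 and 1597, 1731 and 1714 without it. Its arrays overlapped, and the difference was -0.07 (95% interval -0.27 to 0.13), with -0.11 at its dimmer probe set. RAD51AP1, a recombination cofactor, differed by 0.05 (95% interval -0.13 to 0.23), the helicase BLM by -0.08 and the motor RAD54B by -0.01. RAD51C, a recombination protein, differed by -0.09 and 0.11, and RAD51D, with dim signals, by -0.05 and 0.32. RAD51B differed by -0.10 at the only probe set above the filter.

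End joining genes included the brightest members, with the narrowest intervals. XRCC6, the Ku70 subunit that caps broken ends, gave 7129, 7339 and 7693 with CT45A1 and 7292, 7322 and 7505 without it, a difference of 0.002 (95% interval -0.13 to 0.13). XRCC5, the Ku80 subunit, differed by -0.05 (95% interval -0.18 to 0.08) and -0.01 at its bright probe sets and by 0.18 at a dim one. XRCC4, the scaffold of the ligase, differed by -0.09 to 0.12 at 3 probe sets, and by -0.36 at a dim one whose overexpression mean lay below the array median. Of the 8 probe sets, 0 rose, 0 fell in limma and 0 had an unadjusted p under 0.05. Of all probe sets, 3.23% passed in limma, and 12.2% were higher and 8.5% lower at that unadjusted p.

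Mismatch repair genes did not pass either, with 0 of 11 probe sets called in limma and 0 at an unadjusted p under 0.05. Among all probe sets 3.23% were called, and at that unadjusted p 12.2% were higher and 8.5% lower. MSH6, which recognises base mismatches, gave 5361, 5228 and 5282 with CT45A1 and 5212, 6217 and 4649 without it. The negative arrays spread around the overexpression ones, and the difference was -0.01 (95% interval -0.22 to 0.20), with -0.02 at the other probe set. MLH3, a partner in the MLH family, gave 438, 416 and 523 against 541, 524 and 558 at one probe set, a difference of -0.24 (SE 0.12, limma adjusted p = 0.273), and 0.21 and 0.11 at its others. MSH3, which recognises larger loops, differed by -0.44 and 0.18, both with overlapping arrays. PMS1, of the PMS family, differed by 0.07 at its bright probe set and by -0.07 to 0.52 at 3 dimmer ones, the last with a negative mean below the array median.

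Nucleotide excision repair genes had 0 calls in 14 probe sets of 7 genes, with 0 higher and 1 lower at an unadjusted p under 0.05. The shares of all probe sets were 3.23% called in limma, and 12.2% higher and 8.5% lower at that unadjusted p. ERCC1, which with ERCC4 cuts 5′ of a lesion, gave 218, 332 and 311 with CT45A1 and 324, 443 and 409.6 without it at its dimmest probe set, with overlap, a difference of -0.46 (SE 0.19, limma adjusted p = 0.198). Its brighter probe sets differed by 0.04 (95% interval -0.16 to 0.24) and 0.01. ERCC4 differed by 0.08 at its bright probe set and by 0.59 at one whose negative mean lay below the array median, which turned to -1.01 with the actin ratio in the model. ERCC8, which brings the repair machinery to stalled RNA polymerase, lay above 0 at all 3 probe sets, by 0.21, 0.24 and 0.33, although the second value was -0.14 with the actin ratio in the model. The helicases ERCC2 and ERCC3 of TFIIH differed by -0.23 and -0.03, and by -0.06, the nuclease ERCC5 by 0.05, and ERCC6 by -0.06 and -0.04. RAD21, the cohesin subunit that closes the ring around sister chromatids, differed by 0.13 and -0.03, XRCC1, a scaffold of nick repair, by 0.05, and RAD18, a ubiquitin ligase for stalled replication, by -0.10 to 0.04.

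The rule also took in relatives, pseudogenes and antisense RNAs of the named families, among them PMS2 pseudogenes on chromosome 7. Of these 19 probe sets, 0 passed in limma, against 3.23% of all probe sets. Above 0 lay 14 of the 19 (73.7%, against 55.5% of all probe sets). The median was 0.17, or 0.03 under median centring. PMS2P3 gave 1084, 1056 and 1171 with CT45A1 and 838, 837 and 951 without it, with no overlap, a difference of 0.34 (SE 0.09, limma adjusted p = 0.0824), and 0.18 and 0.26 at its other probe sets. The first passed without negative replicate 3 (adjusted p = 0.0492). PMS2P8 differed by 0.46 (SE 0.16, adjusted p = 0.139), PMS2P2 by 0.47 (adjusted p = 0.179) and PMS2P5 by 0.40 (adjusted p = 0.312). PMS2P1 had values on both sides, of -0.11, 0.03, 0.07 and 0.29. The copies are near-identical to each other, and 8 of their 10 probe sets tested carry the suffix _x_at, so their signals cannot be assigned to 1 copy. PMS2 itself has no probe set among the members, and whether these signals include its transcript was not tested. Of all members ending in _x_at, which include these 8, 15 of 21 lay above 0 (71.4%), against 57.3% of all probe sets with that suffix. ERCC6L, a mitotic helicase related to ERCC6, differed by 0.17. ERCC6L2 differed by -0.22, 0.03 and 0.07, its antisense RNA ERCC6L2-AS1 by -0.22, and RAD54L2 by -0.25, -0.02 and 0.35. FANCD2OS, whose negative mean lay below the array median, differed by 0.51, which turned to -0.53 with the actin ratio in the model.

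Of the 34 genes with several probe sets tested, 13 had all of them on one side of 0, 8 above and 5 below, and 21 had them on both sides. The genes with 3 or 4 probe sets all above 0 were ATM, ERCC8, PMS2P3 and RAD17, and NBN had 4 below. CHEK1, FANCB and FANCM spanned over 0.7 on the log2 scale between their probe sets, each with a dim probe set, of mean log2 signal below 8, at the top of its range. In FANCB and FANCM the bottom of the range was also at a probe set that dim. Probe sets of 1 gene can report different transcript ends.

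**Figure D3:**
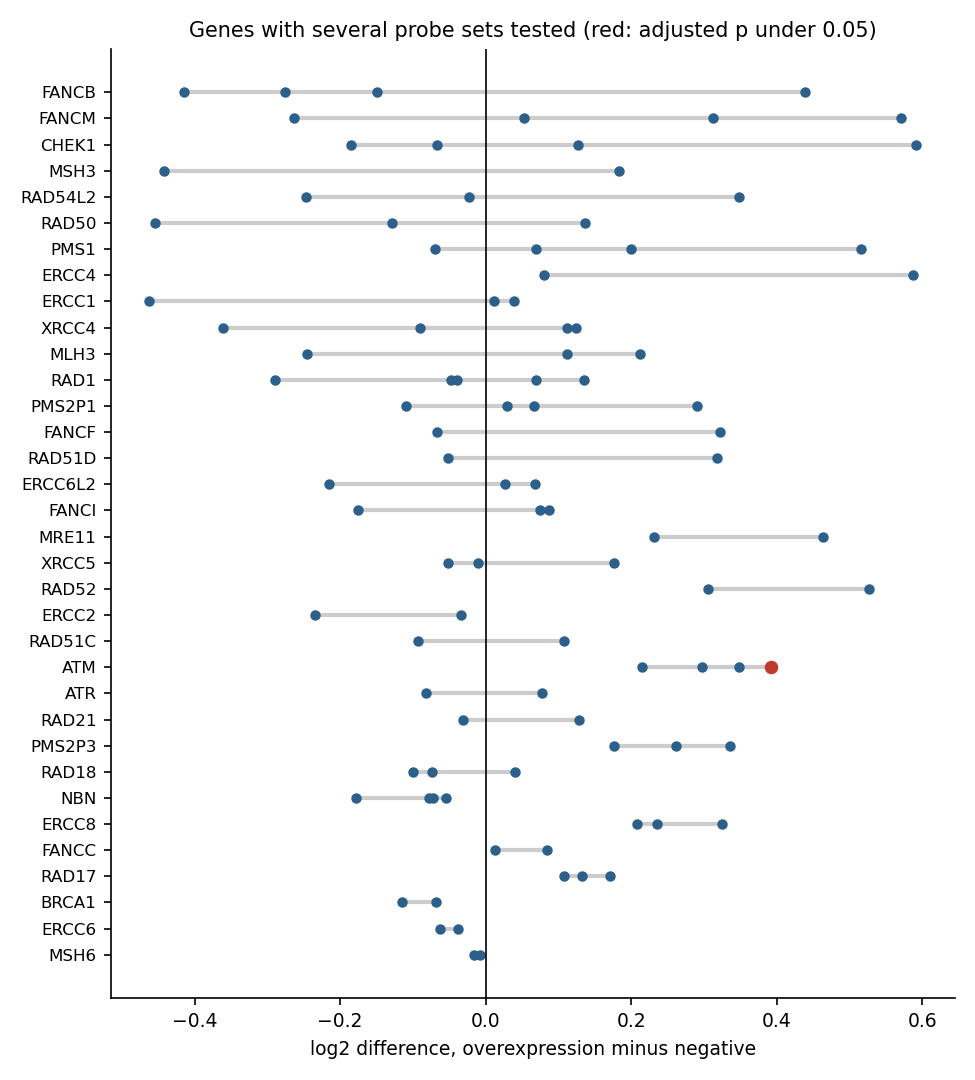
Each row is 1 of the 34 genes with several probe sets tested, ordered by the span between them, and each point is the log2 difference of 1 probe set (horizontal axis, overexpression minus negative). The 1 red point is ATM at 0.39, and FANCB, FANCM and CHEK1 span the widest range.

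Brightness set how closely a member was measured. Below a mean log2 signal of 8, the 35 members had a median SE of 0.24 and a median difference of 0.20, against 0.14 for all probe sets of that brightness. Between 8 and 10, the 51 members had a median SE of 0.13 and a median difference of 0.08, against 0.05. At 10 and above, the 34 members had a median SE of 0.08 and a median difference of -0.01, against -0.04. The share of members above 0 was 60.0%, 62.7% and 47.1% in these ranges, against 65.1%, 58.8% and 40.4% of all probe sets, so it was lowest among bright features in both but did not fall steadily among the members.

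**Figure D4:**
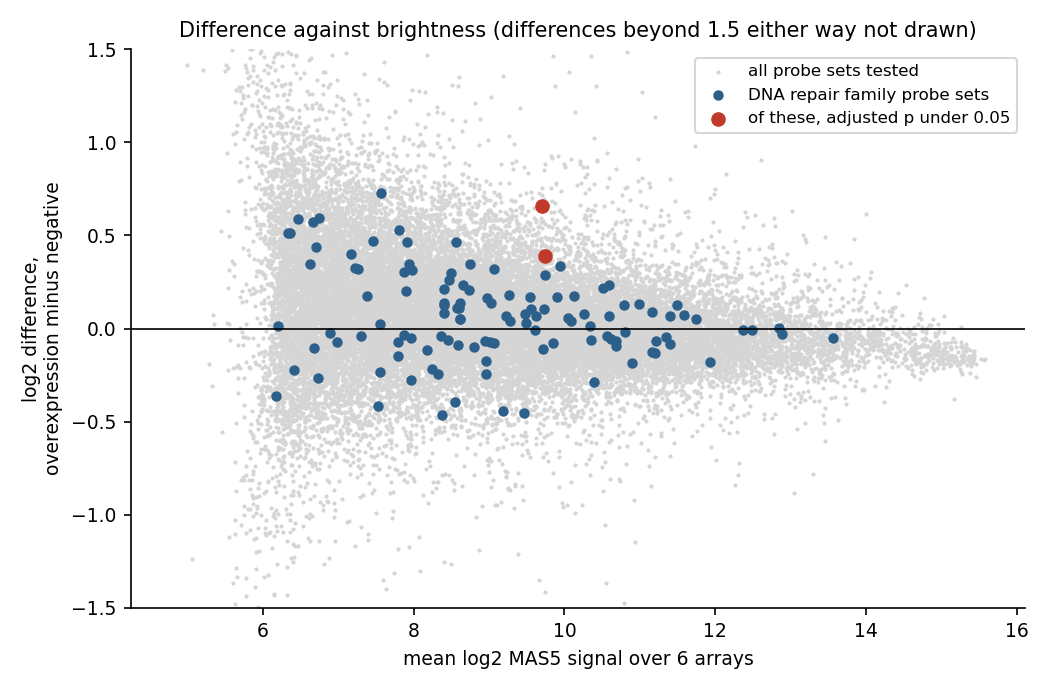
The log2 difference (vertical axis, overexpression minus negative) is plotted against the mean log2 MAS5 signal over 6 arrays (horizontal axis) for all probe sets tested (grey), DNA repair family members (blue) and the 2 members past the threshold (red). The 113 probe sets beyond 1.5 in either direction are not drawn. Members lie within the cloud of all probe sets, and the spread narrows as signal rises.

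Members that were too dim to test numbered 31 probe sets, and 5 genes had no other: MSH4, PMS2P4, RAD21L1, RAD9B and XRCC3. MSH4 and RAD21L1 act in meiosis, as background. No statement on their presence or change is made from these signals.

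Other genes of the same pathways gave a like picture. The lists held 226 probe sets of 113 genes of base excision, end joining, recombination, excision, crosslink, checkpoint, reversal and cohesin function. In limma 3 rose, 0 fell and 223 did not pass (1.33% called, against 3.23% of all probe sets). At an unadjusted p under 0.05, 25 were higher and 13 lower, against 12.2% and 8.5% of all probe sets. The median was 0.03. TDG, a glycosylase that removes thymine from mismatches with guanine, rose by 0.78 (SE 0.18, adjusted p = 0.0448), with signals of 523, 410.1 and 467 against 315, 303 and 206. Its brighter probe set differed by 0.02. NTHL1, a glycosylase for oxidised pyrimidines, rose by 0.49 (SE 0.11, adjusted p = 0.0432), and POLI, a translesion polymerase, by 0.40 (SE 0.09, adjusted p = 0.0427), with 0.38 at its other probe set. When 1 array was left out, 0 to 2 probe sets of these lists were higher: 1 without negative replicate 2, 2 without negative replicate 3 and 0 without any of the other 4. Among 39 probe sets of 16 proliferation markers, 1 rose (2.56%, against 3.23% of all probe sets), and the median was 0.02. It was a probe set of TYMS, which rose by 0.39, while the brightest TYMS probe set differed by 0.03.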

How the data were processed

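RNA was amplified and biotin-labelled from the 3' end for the arrays, per the labels. The authors deposited 1 signal intensity per probe set on a linear scale, and the submitters' processing notes name MAS5 and affy; the sources used here do not give their versions. The 6 columns were matched to samples by name, and groups came from the titles.

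Signals were taken to log2 without an offset, 62 control probe sets were left out, and 27618 probe sets were kept whose signal exceeded the median of an array on 3 or more of the 6. The comparison was fitted with limma 3.58.1 in R 4.3.3 (eBayes with trend, two-sided, Benjamini-Hochberg over all probe sets kept) and tested on simulated data. Gene symbols came from the platform annotation and were updated through RefSeq; 0 member symbols changed.

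The members and lists were chosen with earlier results of these data known. Members past the threshold are given in full; the 2 genes of smallest p in each role, BRCA1, ATM, ATR, CHEK1, CHEK2 and other tested members are given as values. Alternatives were other scalings, filters, an offset, no trend, a replicate block, 1 value per gene, no _x_at or _s_at probe sets, the actin 3'/5' ratio as covariate, and leaving out each array. Motif and figure steps used Python 3.11.15.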

Additional observations from a re-analysis of the deposited data

How the results depend on the processing

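FANCG stayed above 0 in all 17 alternatives, among them the settings that leave its own values unchanged. Against 2 member probe sets higher and 0 lower, 1 was higher under quantile normalization, median centring, no filter on dim probe sets, the replicate block, the brightest probe set per gene, averaging the probe sets within genes and without _x_at and _s_at probe sets, and 0 without the variance trend or with the actin covariate. Leaving out 1 array gave 1 to 2 higher and 0 to 0 lower. The count of lower members was 1 under quantile normalization, the 75th percentile filter and the offset of 32, and 3 under median centring. By brightest probe set per gene, 1 was higher throughout, while lower genes numbered 2 under median centring and 1 without _x_at and _s_at probe sets or with the actin covariate. The members' median was -0.0934 under median centring and -0.0006 with the actin covariate, within 0.04 to 0.06 with 1 array left out. Of the CT45 probe sets, 1 passed under quantile normalization and with no filter, and 0 without the variance trend, with the actin covariate and without _x_at and _s_at probe sets, where 1 was tested. They could not be tested under the 75th percentile filter or without an overexpression array, and 2 to 2 passed without a negative one. The other repair lists had 0 higher under quantile normalization, no filter, no trend and the actin covariate, 1 when probe sets were averaged within genes, and 0 to 2 with 1 array left out. Their lower count was 16 under median centring, 1 under the 75th percentile filter, and 0 to 1 with 1 array left out. Among the named members, 6 probe sets changed sign: MLH3 to 0.0265 with the gene mean, RAD21 to -0.0162 under median centring, ATR to 0.0033 with the actin covariate, CHEK2 to -0.0076 under median centring and -0.1623 with the actin covariate, XRCC5 to 0.0333 under quantile normalization, 0.0380 with the gene mean and 0.0268 with the actin covariate, and RAD18 to 0.0287 with the actin covariate, all without passing. The cause of these changes was not tested. Over all probe sets, 58.5% of calls were higher, against 13.0% under median centring, and calls numbered 2975 there, 486 without a filter, 4 without the trend and 159 to 1171 with 1 array left out, against 892. With the replicate block 1189 passed. Same-numbered arrays did not deviate together (r = -0.01, -0.01 and 0.10 for numbers 1, 2 and 3), and not every array correlated best with its own number, so the numbers were not taken as pairs.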
